A study of Mus musculus with 12 samples.

Results

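The V1 sector of the vacuolar H+-ATPase (V-ATPase) was followed at the RNA level in mouse embryonic fibroblasts (MEF), connective tissue cells grown from embryos. Its 8 genes were chosen by name as the subunits A to H in the forms that most cells use, namely Atp6v1a, Atp6v1b2, Atp6v1c1, Atp6v1d, Atp6v1e1, Atp6v1f, Atp6v1g1 and Atp6v1h. All 8 were measured, among 12988 genes in all, and all 8 passed the filter on low values. The study profiled HSF1 knock-out MEF with LiCl (HSF1 KO MEF LiCl), HSF1 KO MEF without it, wild type MEF with LiCl (WT MEF LiCl) and untreated WT MEF, with 3 libraries in each of the 4 groups. LiCl was given at 20 mM for 48 h. HSF1 is the transcription factor of the heat shock response, and lithium inhibits GSK3, a kinase that keeps β-catenin low, so the design asks which responses to lithium need HSF1. How the knock-out cells were made, whether they are a single clone and the age and strain of the embryos are not stated in the sources used. The labels number the libraries of a group 1 and 2 and leave the other without a number. The study states that the sequencing was done 3 times, but not whether the libraries came from separate cultures. Each p-value therefore measures the spread between libraries, which may be technical. The 4 unnumbered libraries, 1 in each group, deviated from their group means together, with correlations of 0.125 to 0.195 over genes in all 6 pairs, and results were also obtained without them.

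The V-ATPase is a rotary proton pump in the membranes of lysosomes and other acidic compartments. The V1 sector sits in the cytosol and hydrolyses ATP, which turns a central stalk, and the V0 sector in the membrane lets protons through as the stalk turns. The sectors can come apart and rejoin, which switches the pump off and on, and the assembled pump takes part in amino acid sensing by mTORC1 through the Ragulator and Rag proteins. Transcription factors of the MiT/TFE family, such as TFEB and TFE3, are known to drive genes of lysosomes and of V-ATPase subunits.

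The values are FPKM, fragments scaled for transcript length and library size, summed over the transcripts of a gene, and their sums per library lay between 344208 and 370025. Libraries of the same group correlated at 0.976 to 0.983 over genes and libraries of different groups at 0.823 to 0.933. Hsf1 itself had 3.65, 7.64 and 5.92 FPKM in HSF1 KO MEF LiCl and 0.939, 3.89 and 2.07 FPKM in HSF1 KO MEF, against 14.5, 13.3 and 11.2 FPKM in WT MEF LiCl and 11.1, 7.96 and 8.17 FPKM in WT MEF, so it was lower in the knock-out but not absent. The labels and the text of the study call these cells a knock-out, while a legend of the study writes HSF1+/- for them, so whether a working allele remained cannot be told here. Fibroblast markers fell with LiCl in both genotypes (12 of 12 genes). Of all genes tested, 21.1% were called lower in HSF1 KO MEF and 27.1% in WT MEF. Fap passed the filter on low values only through untreated WT MEF, so its fall in WT MEF is no support. The sum of the 12 fibroblast markers reached 605 to 666 FPKM in HSF1 KO MEF LiCl and 2198 to 2430 FPKM in HSF1 KO MEF. In WT MEF LiCl it was 890 to 909 FPKM, and in WT MEF 4120 to 4455 FPKM. A list of 14 macrophage markers summed to 102 to 117 FPKM in HSF1 KO MEF LiCl, 1380 to 1596 FPKM in HSF1 KO MEF, 40.9 to 44.7 FPKM in WT MEF LiCl and 116 to 123 FPKM in WT MEF. Untreated HSF1 KO MEF exceeded untreated WT MEF in all 14. Of these, Ptprc, Aif1, Fcgr1, Mrc1, C1qa and Itgam passed the filter on low values only through untreated HSF1 KO MEF. They had to be higher there and add no support. Ptprc and Aif1 were listed at 0 in every library of the other groups. Of 6 epithelial markers 4 were in the table, without Epcam and Cdh1, and their sum was 33.0 to 36.4 FPKM in HSF1 KO MEF LiCl, 3.32 to 5.04 FPKM in HSF1 KO MEF, 25.7 to 28.5 FPKM in WT MEF LiCl and 7.99 to 9.79 FPKM in WT MEF, most of it from Krt19. None of 5 endothelial markers was in the table. In such bulk samples fewer cells of a type and less RNA per cell cannot be told apart.

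LiCl raised the V1 sector in both genotypes, and more so in WT MEF. The 8 genes together had 787, 856 and 840 FPKM in HSF1 KO MEF LiCl, against 579, 580 and 529.8 FPKM in HSF1 KO MEF, a ratio of the means of 1.47. In WT MEF LiCl they had 1144, 1215 and 1206 FPKM, against 429, 417 and 469.8 FPKM in WT MEF, a ratio of 2.71. In HSF1 KO MEF 7 of 8 genes rose with LiCl by limma's test at an adjusted p under 0.05, where 36.5% of all genes tested were called higher. In WT MEF 8 of 8 rose, where 38.1% of all genes were called higher. Every library with LiCl was above every untreated one for 7 of 8 genes in HSF1 KO MEF, as for 39% of all genes, and for 8 of 8 in WT MEF, as for 40.8% of all genes. The median log2 fold change of the 8 genes was 0.61 in HSF1 KO MEF and 1.58 in WT MEF, beside 0.16 and 0.13 over all 12279 genes tested.

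**Figure D1:**
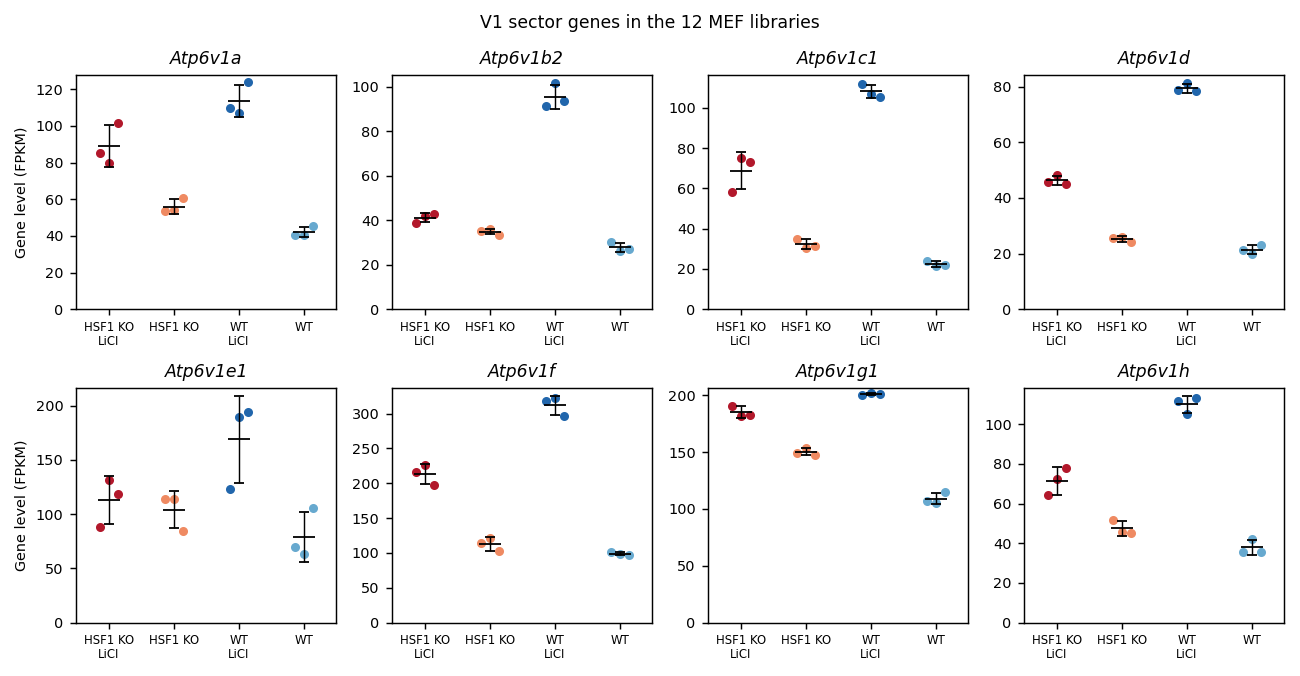
FPKM of the V1 sector genes on the vertical axis, 1 panel per gene, in the groups HSF1 KO MEF LiCl, HSF1 KO MEF, WT MEF LiCl and WT MEF from left to right. Points are the 3 libraries of a group, and the bar and whiskers are their mean and SD. WT MEF LiCl has the highest mean in each of the 8 panels and untreated WT MEF the lowest, and the libraries of Atp6v1e1 spread most.

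These changes are partly set against a shift of all genes. After median-of-ratios scaling the median of all genes moved to -0.0039 in HSF1 KO MEF and -0.0155 in WT MEF, and the share of called genes that were higher was 48.4% in place of 63.3% in HSF1 KO MEF and 49.0% in place of 58.4% in WT MEF. Under that scaling the median of the V1 genes was 0.41 in HSF1 KO MEF and 1.41 in WT MEF, with 5 of 8 and 8 of 8 genes called higher. Of all 12279 genes, 3237 were called higher in HSF1 KO MEF under it and 3816 in WT MEF. The fall of the fibroblast markers went along with both responses, and its part in them was not tested. The epithelial keratin genes Krt18 and Krt19 rose with LiCl by 2.12 and 2.69 on the log2 scale in HSF1 KO MEF (limma adjusted p = 5.82e-08 and 3.43e-08). In WT MEF they rose by 1.73 and 1.39 (limma adjusted p = 1.63e-07 and 3.74e-06). Cldn4 was higher with LiCl too, with a mean of 2.63 FPKM in HSF1 KO MEF LiCl against 0.217 FPKM in HSF1 KO MEF. In WT MEF LiCl it had 0.512 FPKM, against 0.0351 FPKM in WT MEF. Cldn4 passed the filter on low values only through HSF1 KO MEF LiCl, so no test of it with LiCl is given. Krt8 was below the filter and not tested. It went the other way in WT MEF, with a mean of 0.326 FPKM in WT MEF LiCl against 0.714 FPKM in WT MEF. The part of these epithelial genes in the V1 rise was not tested either. The macrophage markers fell with LiCl in HSF1 KO MEF (14 of 14), where 21.1% of all genes were called lower. Ptprc, Aif1, Fcgr1, Mrc1, C1qa and Itgam passed the filter only through untreated HSF1 KO MEF, so they had to fall. In WT MEF, where 27.1% of all genes were called lower, 7 of 14 fell and 2 rose, with a lower sum in WT MEF LiCl than in WT MEF. Ptprc and Aif1 were at 0 in both WT MEF groups and could not fall there.

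The catalytic head of V1 is built of alternating A and B subunits. Atp6v1a, which encodes the A subunit that hydrolyses ATP, is found at chr16:44085402-44139705 (reverse strand, GRCm38). It had 85.3, 79.6 and 101.7 FPKM in HSF1 KO MEF LiCl, against 53.3, 53.9 and 60.8 FPKM in HSF1 KO MEF, next to 109.8, 107.1 and 123.8 FPKM in WT MEF LiCl, against 40.5, 40.3 and 45.6 FPKM in WT MEF. Every library with LiCl was above every untreated library, and the highest HSF1 KO MEF LiCl library stayed just under the lowest of WT MEF LiCl. The rise was 1.59-fold in HSF1 KO MEF (log2 fold change 0.65, standard error 0.099, limma adjusted p = 0.000201) and 2.70-fold in WT MEF (1.41, standard error 0.099, limma adjusted p = 3.29e-07). Atp6v1b2 (chr8:69088646-69113711, forward strand) encodes the B2 subunit, which completes the head. Its level was 38.8, 41.9 and 42.9 FPKM in HSF1 KO MEF LiCl, against 35.1, 35.9 and 33.5 FPKM in HSF1 KO MEF, next to 91.4, 101.8 and 93.7 FPKM in WT MEF LiCl, against 30.2, 26.1 and 27.3 FPKM in WT MEF. The WT MEF LiCl libraries thus stood far above all others, and the groups of the knock-out were close but did not overlap. The rise was 1.18-fold in HSF1 KO MEF (0.23, standard error 0.069, limma adjusted p = 0.0133) and 3.43-fold in WT MEF (1.74, standard error 0.069, limma adjusted p = 3.42e-09). In HSF1 KO MEF the call of Atp6v1b2 was lost under median-of-ratios scaling (0.035, limma adjusted p = 0.704), quantile normalization (0.17, limma adjusted p = 0.0543) and without the 4 unnumbered libraries (0.18, limma adjusted p = 0.151).

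The central stalk turns inside the head and carries its motion to V0. Atp6v1d (chr12:78840725-78861638, reverse strand) encodes its D subunit. It had 45.8, 48.1 and 45.1 FPKM in HSF1 KO MEF LiCl, against 25.6, 26.1 and 24.1 FPKM in HSF1 KO MEF, next to 78.7, 81.3 and 78.4 FPKM in WT MEF LiCl, against 21.3, 19.9 and 23.0 FPKM in WT MEF. Libraries of a group lay close together, and LiCl separated them in both genotypes. Its log2 fold change was 0.85 in HSF1 KO MEF (standard error 0.060, limma adjusted p = 6.29e-07) and 1.85 in WT MEF (standard error 0.060, limma adjusted p = 9.03e-10). Atp6v1f (chr6:29467718-29470512, forward strand) encodes the F subunit of the same stalk and had the highest level of the 8 genes in WT MEF LiCl. Its values were 216, 227 and 198 FPKM in HSF1 KO MEF LiCl, against 114, 121 and 102 FPKM in HSF1 KO MEF, next to 317, 322 and 296 FPKM in WT MEF LiCl, against 101, 98.9 and 96.2 FPKM in WT MEF. The groups with LiCl overlapped neither each other nor the untreated ones. The rise was 1.90-fold in HSF1 KO MEF (0.92, standard error 0.072, limma adjusted p = 1.33e-06) and 3.16-fold in WT MEF (1.65, standard error 0.072, limma adjusted p = 7.11e-09).

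The C and H subunits sit where V1 meets V0. C leaves the complex when the sectors come apart, and H is known from yeast to silence ATP hydrolysis of free V1. Atp6v1c1 (chr15:38661933-38692446, forward strand) had the highest log2 fold change of the 8 genes in each genotype. It had 58.1, 74.9 and 73.2 FPKM in HSF1 KO MEF LiCl, against 34.9, 30.4 and 31.5 FPKM in HSF1 KO MEF, next to 112, 107 and 105.6 FPKM in WT MEF LiCl, against 23.9, 21.3 and 22.0 FPKM in WT MEF. Every library with LiCl was higher than every untreated one. The rise was 2.13-fold in HSF1 KO MEF (1.06, standard error 0.095, limma adjusted p = 3.9e-06) and 4.83-fold in WT MEF (2.22, standard error 0.095, limma adjusted p = 6.31e-09), and 1.45% of all genes tested had a higher log2 fold change in WT MEF. Atp6v1h (chr1:5070018-5162529, forward strand) had 64.1, 72.2 and 77.9 FPKM in HSF1 KO MEF LiCl, against 51.9, 45.6 and 45.3 FPKM in HSF1 KO MEF, next to 112, 105 and 113 FPKM in WT MEF LiCl, against 35.8, 42.3 and 35.8 FPKM in WT MEF. The groups did not overlap within either genotype. Its log2 fold change was 0.57 in HSF1 KO MEF (standard error 0.091, limma adjusted p = 0.000287) and 1.51 in WT MEF (standard error 0.091, limma adjusted p = 9.72e-08).

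E and G subunits pair in the peripheral stalks that hold the head still. Atp6v1g1 (chr4:63544772-63550750, forward strand) had 191, 181 and 183 FPKM in HSF1 KO MEF LiCl, against 149.5, 154 and 148 FPKM in HSF1 KO MEF, next to 200.3, 202 and 201 FPKM in WT MEF LiCl, against 107, 105 and 114 FPKM in WT MEF. It had the highest level of the 8 genes in both untreated groups, and the 4 groups did not overlap. LiCl raised it 1.23-fold in HSF1 KO MEF (0.30, standard error 0.047, limma adjusted p = 0.000264) and 1.85-fold in WT MEF (0.88, standard error 0.047, limma adjusted p = 3.51e-08), and the rise in HSF1 KO MEF was not called after median-of-ratios scaling (0.094, limma adjusted p = 0.111). Atp6v1e1 (chr6:120794305-120822793, reverse strand) was the member with the widest spread. It had 88.1, 132 and 119 FPKM in HSF1 KO MEF LiCl, against 114, 114 and 84.4 FPKM in HSF1 KO MEF, next to 123, 189.5 and 194 FPKM in WT MEF LiCl, against 69.3, 62.8 and 106 FPKM in WT MEF. The knock-out groups overlapped, and in each group 1 library stood apart from the other 2, namely number 1 in both groups with LiCl and the unnumbered one in both untreated groups. Atp6v1e1 rose 2.13-fold in WT MEF (1.09, standard error 0.24, limma adjusted p = 0.00211) and did not pass in HSF1 KO MEF (0.11, 95% interval -0.42 to 0.64, limma adjusted p = 0.724). That value turned to -0.094 after median-of-ratios scaling, to -0.080 without the 4 unnumbered libraries, to -0.012 without HSF1 KO MEF LiCl library 2 and to -0.034 without the unnumbered HSF1 KO MEF library.

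**Figure D2:**
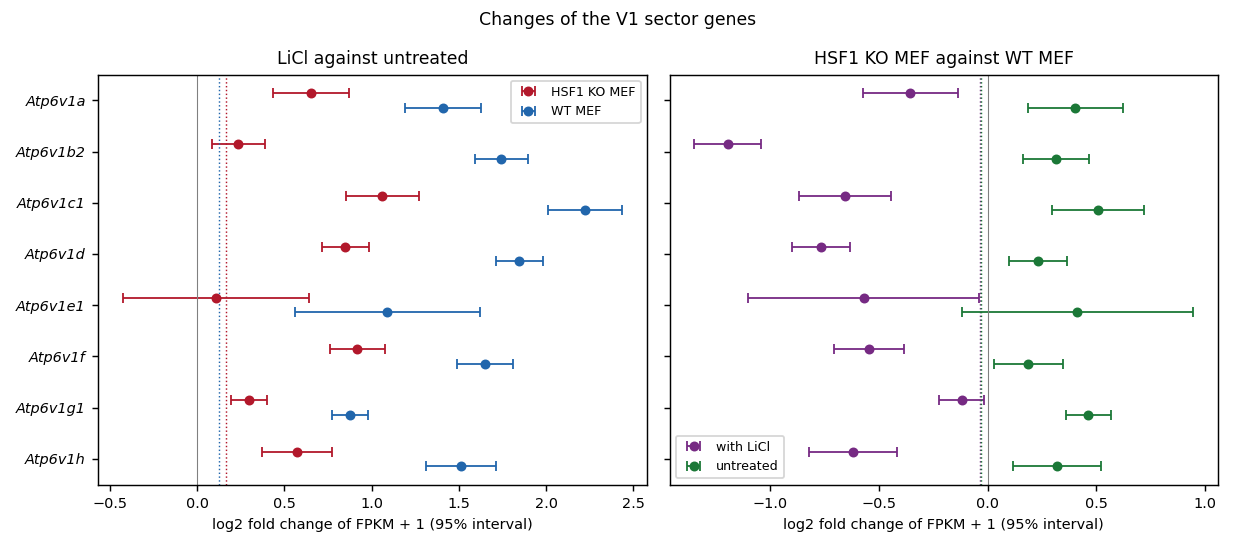
Log2 fold change on the FPKM + 1 scale (horizontal axis) of each V1 gene (rows), with the 95% interval from limma as whiskers. The left panel gives LiCl against untreated in HSF1 KO MEF (red) and WT MEF (blue), the right panel HSF1 KO MEF against WT MEF with LiCl (purple) and untreated (green), and dotted lines mark the medians of all genes. In the left panel each blue point lies right of its red one, and in the right panel the points lie left of 0 with LiCl and right of 0 without it.

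Each of the 8 genes responded less to LiCl in the knock-out than in the wild type. The difference between the responses, tested as an interaction, was past the threshold for 8 of 8 genes, all lower in HSF1 KO MEF, where 15.3% of all genes tested were called lower. Its median was -0.96 on the log2 scale, beside 0.014 over all genes. Atp6v1b2 differed most, by -1.51 (standard error 0.097, limma adjusted p = 1.25e-06), followed by Atp6v1c1 with -1.16 (standard error 0.13, limma adjusted p = 8.08e-05) and Atp6v1d with -0.997 (standard error 0.0855, limma adjusted p = 9.73e-06). Of the 12279 genes tested, 97.5% had a higher interaction value than Atp6v1b2. Smaller differences were found for Atp6v1h (-0.94), Atp6v1a (-0.76), Atp6v1f (-0.73) and Atp6v1g1 (-0.58), at adjusted p-values of 7.11e-05 to 0.00191 by limma. For Atp6v1e1 the difference was -0.98 (standard error 0.34) and the adjusted p only 0.0492. This call was lost in 8 of 12 fits that left out 1 library, with adjusted p-values of 0.0679 to 0.11 from limma, namely without HSF1 KO MEF LiCl 1 or the unnumbered library of that group, HSF1 KO MEF 1 or 2, WT MEF LiCl 2 or the unnumbered one, and WT MEF 1 or 2. In the numbered libraries alone the interaction was again called lower for 8 of 8 genes, with a median of -1.02. Between the 4 unnumbered libraries, where no test is possible, it was below 0 for 8 of 8 genes with a median of -0.77, and Atp6v1e1 had -0.39 there against -1.28 in the numbered ones. All 14 macrophage markers were called lower in this comparison too, but low values limit what that count means. Ptprc and Aif1 were at 0 in both WT MEF groups and could not fall there. Fcgr1, Mrc1 and C1qa averaged under 0.5 FPKM in both. Ptprc, Aif1, Fcgr1, Mrc1, C1qa and Itgam passed the filter only through untreated HSF1 KO MEF, so they had to differ. Called higher were 9 of 12 fibroblast markers, where 16.1% of all genes were, that is, they fell less in HSF1 KO MEF. Of the epithelial markers Krt19 had an interaction of 1.31 (limma adjusted p = 0.000348) and Krt18 of 0.39 (limma adjusted p = 0.0821). Krt8 was not tested. No test of Cldn4 is given, since it passed the filter only through HSF1 KO MEF LiCl. The part of these lists in the V1 difference was not tested.

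Without LiCl the V1 genes were slightly higher in HSF1 KO MEF. Called higher were 6 of 8 genes, where 17.8% of all genes tested were called higher, and for 7 of 8 genes every HSF1 KO MEF library was above every WT MEF library, where 22.5% of all genes were. The median log2 fold change was 0.36, beside -0.032 over all genes. This excess was not particular to V1. The median was 0.42 for the V0 genes (5 of 8 called higher) and 0.27 for the mitochondrial F-type ATPase (6 of 16 called higher), lists described below. Atp6v1c1 was 1.44-fold higher (0.51, standard error 0.095, limma adjusted p = 0.00159), Atp6v1g1 1.38-fold (0.46, standard error 0.047, limma adjusted p = 1.67e-05) and Atp6v1a 1.33-fold (0.40, standard error 0.099, limma adjusted p = 0.00802). Atp6v1b2 (0.32), Atp6v1h (0.32) and Atp6v1d (0.23) were also past the threshold, with limma adjusted p-values of 0.0041, 0.0173 and 0.0115 in that order. The call of Atp6v1h was lost without HSF1 KO MEF library 1 (0.26, limma adjusted p = 0.0685), WT MEF library 1 (0.28, limma adjusted p = 0.065) or the unnumbered WT MEF library (0.28, limma adjusted p = 0.0591), and without all 4 unnumbered libraries (0.31, limma adjusted p = 0.0751). Atp6v1d was not called when only the groups compared were fitted (limma adjusted p = 0.0556). Atp6v1f had 0.19 (limma adjusted p = 0.0636) and was called without the unnumbered HSF1 KO MEF library (0.25, limma adjusted p = 0.0167), without all 4 (0.24, limma adjusted p = 0.0155) and with the unnumbered libraries as a block (0.19, limma adjusted p = 0.00563), and Atp6v1e1 had 0.41 (95% interval -0.12 to 0.94, limma adjusted p = 0.212). The macrophage markers had a sum of 1380 to 1596 FPKM in HSF1 KO MEF against 116 to 123 FPKM in WT MEF. Called lower were 7 of 12 fibroblast markers, where 20.4% of all genes were called lower, and Krt18 and Krt19 of the 3 epithelial markers tested, while Cldn4 was not called. Their part in the V1 values was not tested.

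With LiCl the order of the genotypes was the other way round. Called lower in HSF1 KO MEF LiCl than in WT MEF LiCl were 6 of 8 genes, where 23.0% of all genes tested were called lower, and 7 of 8 did not overlap, where 28.8% of all genes were lower without overlap. The median was -0.60, beside -0.033 over all genes. Atp6v1b2 reached 0.431 of its WT MEF LiCl level (log2 fold change -1.19, standard error 0.069, limma adjusted p = 2.31e-07) and Atp6v1d 0.583 (-0.77, standard error 0.060, limma adjusted p = 2.46e-06). Atp6v1c1 (-0.66), Atp6v1h (-0.62), Atp6v1f (-0.54) and Atp6v1a (-0.36) were lower too. Atp6v1a was no longer called once HSF1 KO MEF LiCl library 2 was left out (-0.28, limma adjusted p = 0.0528), nor once WT MEF LiCl lost its unnumbered library (-0.29, limma adjusted p = 0.0555). Atp6v1g1 was at 0.920 of its WT MEF LiCl level (-0.12, 95% interval -0.22 to -0.016, limma adjusted p = 0.0619, and 0.0357 with the unnumbered libraries as a block) and Atp6v1e1 at 0.667 (-0.57, limma adjusted p = 0.0801, and -0.78 with an adjusted p of 0.0261 without WT MEF LiCl library 1). Macrophage markers were mixed here, with 6 of 14 higher and 2 of 14 lower in HSF1 KO MEF LiCl, where 19.6% of all genes were called higher, and fibroblast markers too, with 4 of 12 higher and 6 of 12 lower. Of the epithelial markers, Krt19 (0.44, limma adjusted p = 0.0194) was called higher and Krt18 (-0.22) was not called. No test of Cldn4 is given here, since it passed the filter only through HSF1 KO MEF LiCl. Their part was not tested. Comparisons between genotypes share their libraries with the LiCl comparisons, so they are no separate evidence of the same pattern.

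The mix of subunit RNAs within the sector shifted as well. The share of Atp6v1c1 in the V1 sum was 8.28 ± 0.78% in HSF1 KO MEF LiCl against 5.74 ± 0.44% in HSF1 KO MEF, and 9.12 ± 0.58% in WT MEF LiCl against 5.12 ± 0.44% in WT MEF (SD, n = 3 each). Atp6v1g1 moved the other way, with 22.4 ± 1.6% in HSF1 KO MEF LiCl against 26.7 ± 1.1% in HSF1 KO MEF, and 16.9 ± 0.51% in WT MEF LiCl against 24.9 ± 0.44% in WT MEF. Atp6v1b2 took 4.98 ± 0.12% in HSF1 KO MEF LiCl and 6.19 ± 0.14% in HSF1 KO MEF, but 8.04 ± 0.31% in WT MEF LiCl and 6.37 ± 0.62% in WT MEF. Its share with LiCl therefore lay below that of its own untreated cells in the knock-out and above it in the wild type. These shares are descriptions, since a share falls when another gene rises. Over the 12 libraries each gene followed the mean of the other 7 with Pearson's r of 0.807 (Atp6v1e1) to 0.985 (Atp6v1d), a description of libraries that share groups and scaling.

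The V0 sector was measured by 8 of its 10 listed genes. With LiCl 4 of 8 rose and 1 fell in HSF1 KO MEF, where 36.5% of all genes were called higher and 21.1% lower. In WT MEF 6 of 8 rose, where 38.1% of all genes were called higher. The interaction called 5 of 8 lower in HSF1 KO MEF, where 15.3% of all genes were called lower. Tcirg1, which encodes the a3 subunit known from osteoclasts, had 19.1 ± 1.6 FPKM in HSF1 KO MEF LiCl against 17.0 ± 1.1 FPKM in HSF1 KO MEF, and 37.9 ± 4.6 FPKM in WT MEF LiCl against 6.86 ± 0.57 FPKM in WT MEF (SD, n = 3 each), and its interaction was -2.14 (standard error 0.14, limma adjusted p = 1.38e-06). Atp6v0b and Atp6v0d1, a proteolipid of the proton-carrying ring and the subunit below the stalk, had interactions of -1.16 and -0.78. By contrast Atp6v0e2, a small membrane subunit, had nearly the same level with LiCl in both genotypes, 26.0 ± 0.68 FPKM in HSF1 KO MEF LiCl and 26.1 ± 1.1 FPKM in WT MEF LiCl, against 5.83 ± 0.25 FPKM in HSF1 KO MEF and 4.16 ± 0.24 FPKM in WT MEF, and its interaction was -0.41 (limma adjusted p = 0.00631). Atp6v0a1, which encodes the a1 subunit, fell with LiCl in HSF1 KO MEF by 0.80 on the log2 scale (standard error 0.21, limma adjusted p = 0.00699). The ratio of the V1 sum to the V0 sum was 1.27 ± 0.056 in HSF1 KO MEF LiCl against 1.07 ± 0.052 in HSF1 KO MEF, and 1.32 ± 0.15 in WT MEF LiCl against 1.09 ± 0.093 in WT MEF (SD, n = 3 each), and the libraries of WT MEF overlapped between LiCl and untreated. After median-of-ratios scaling 3 V0 genes were called higher with LiCl in the knock-out and 2 lower, and 6 higher and 1 lower in the wild type. Of all 12279 genes it called 3237 higher and 3452 lower in the knock-out, and 3816 and 3976 in the wild type.

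**Figure D3:**
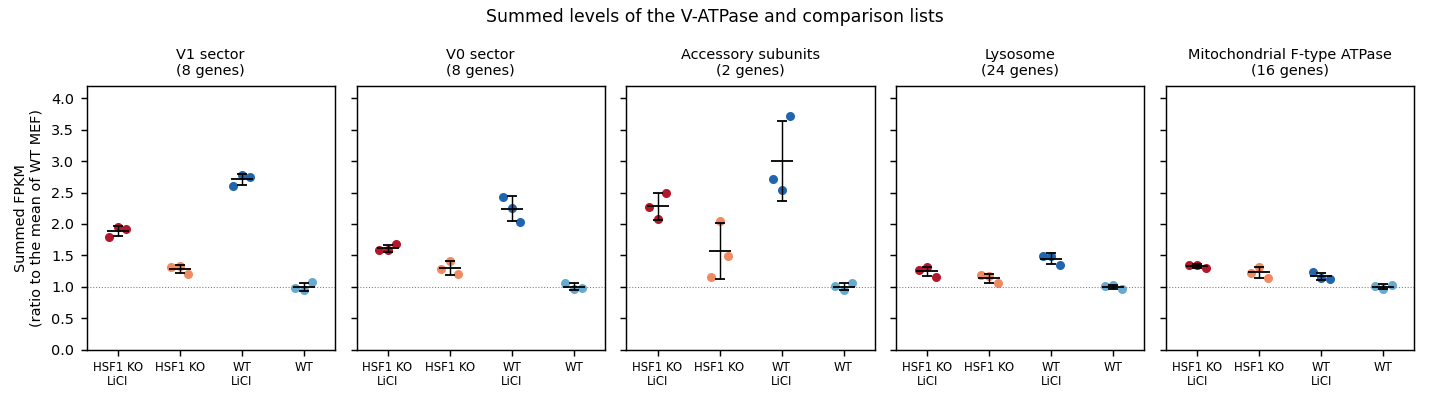
Summed FPKM of the V1 sector, the V0 sector, the accessory subunits, a lysosome list and the mitochondrial F-type ATPase, each divided by the mean of untreated WT MEF (vertical axis), in HSF1 KO MEF LiCl, HSF1 KO MEF, WT MEF LiCl and WT MEF from left to right. Points are libraries, bar and whiskers their mean and SD. WT MEF LiCl lies at 2.61 to 2.77 for V1 and 1.12 to 1.23 for the F-type ATPase, where HSF1 KO MEF LiCl is higher, at 1.30 to 1.35.

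Partners of the pump gave a mixed picture. Both accessory subunits in the table rose in WT MEF, Atp6ap2, the prorenin receptor, by 1.94 and Atp6ap1 by 1.06, and the response of Atp6ap2 was lower in HSF1 KO MEF by 0.83 on the log2 scale (limma adjusted p = 0.000113). Of 9 assembly factors and regulators measured, 3 rose in HSF1 KO MEF, and 3 rose and 2 fell in WT MEF. These counts lie near the shares of all genes, 36.5% called higher in HSF1 KO MEF, and 38.1% higher and 27.1% lower in WT MEF. Tmem199, an assembly factor of V0, rose by 1.11 in HSF1 KO MEF and 2.24 in WT MEF, with an interaction of -1.12 (limma adjusted p = 8.98e-05), whereas Ncoa7 and Oxr1, whose TLDc domains bind V1, fell in WT MEF by 1.21 and 1.05. Among 13 Ragulator and Rag genes 6 rose in HSF1 KO MEF, and 8 rose and 1 (Lamtor2, -0.53) fell in WT MEF, beside the same shares of all genes. Flcn, Rragd and Fnip2, which regulate nutrient sensing at the lysosome, rose in WT MEF by 3.26, 3.08 and 2.27 on the log2 scale. Their interactions were -1.75, -1.60 and -1.79, all past the threshold, but that of Flcn only just (standard error 0.61, limma adjusted p = 0.0498). Of the 4 MiT/TFE factors 3 fell and 1, Tfeb, rose with LiCl in HSF1 KO MEF, where 21.1% of all genes were called lower, and 2 fell in WT MEF. Tfe3 was 7.66 ± 1.8 FPKM in HSF1 KO MEF LiCl against 14.1 ± 1.2 FPKM in HSF1 KO MEF, and 11.3 ± 3.2 FPKM in WT MEF LiCl against 22.7 ± 1.2 FPKM in WT MEF (SD, n = 3 each), and fell in both. Tfeb had 2.89 ± 0.71 FPKM in HSF1 KO MEF LiCl against 1.57 ± 0.22 FPKM in HSF1 KO MEF (0.58, limma adjusted p = 0.0386) and had -0.32 in WT MEF (limma adjusted p = 0.218). After median-of-ratios scaling the rise of Tfeb was not called, and 3 of 4 factors were called lower. That scaling left 1 assembly factor higher and 1 lower in the knock-out, and 4 Ragulator and Rag genes higher and 4 lower. Of all 12279 genes it called 3237 higher and 3452 lower there.

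The lysosome list of 24 membrane and hydrolase genes had 12 genes that rose and 3 that fell with LiCl in HSF1 KO MEF, and 17 that rose and 1 that fell in WT MEF. After median-of-ratios scaling these were 7 and 5 genes in the knock-out and 13 and 2 in the wild type. The interaction called 11 of 24 lower in HSF1 KO MEF, where 15.3% of all genes were called lower. These 11 were led by Gla, the enzyme lacking in Fabry disease, with -1.78 (limma adjusted p = 3.22e-07). Ostm1, a partner of the chloride exchanger Clcn7, followed with -1.19 (limma adjusted p = 0.000271). The mitochondrial F-type ATPase, a rotary enzyme of related build that makes ATP, served as a comparison. Of its 16 genes 2 rose with LiCl in HSF1 KO MEF, where median-of-ratios scaling gave 3 lower in their place, and 6 rose and 1 fell in WT MEF, where that scaling gave 3 higher and 2 lower. The 6 of 16 that rose in WT MEF lie near the 38.1% of all genes. For the interaction limma called 0 of the 16 F-type genes, where 15.3% of all genes were called lower and 16.1% higher. Of the 16, 1 had an unadjusted p under 0.05 by limma, and 1 was called higher after quantile normalization. The median interaction of the F-type genes was -0.096, beside -0.96 for V1 and -0.69 for V0.

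At the level of single transcripts, 20 of the 22 V1 transcripts in the table passed the filter. Of these 20, Atp6v1a-203, Atp6v1f-203 and Atp6v1h-205 averaged under 0.5 FPKM once their highest group was left aside. They passed the filter through that group, so their calls are not counted. The other 17 were tested one by one, a check added after the data were seen. With LiCl 8 of 17 rose in HSF1 KO MEF, where 18.2% of all 23003 transcripts were called higher, and 10 of 17 in WT MEF, where 21.4% were. The interaction called 5 of 17 lower, where 5.66% were. In untreated HSF1 KO MEF 4 of 17 were higher than in WT MEF, where 7.58% were, and with LiCl 4 of 17 were lower, where 9.64% were. The shares are over all transcripts tested, with no such exclusion. Atp6v1b2, Atp6v1d and Atp6v1g1 had 1 transcript each in the table. StringTie divides reads among transcripts that share most of their exons, so the transcript values are estimates, and those of Atp6v1h-201, a 14-exon form, and Atp6v1h-204 varied widely within groups. These forms differ in coding sequence by exon 7 of Atp6v1h-201 (chr1:5101070-5101123, forward strand, GRCm38), which is absent from Atp6v1h-204. It has 54 bases and so keeps the reading frame, and it is shown because it is the whole coding difference between the main forms.

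Atp6v1h exon 7: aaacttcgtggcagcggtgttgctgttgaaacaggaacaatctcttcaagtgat

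Atp6v1h-204, without this exon, had 17.2, 50.7 and 36.7 FPKM in HSF1 KO MEF LiCl, against 22.5, 12.5 and 18.6 FPKM in HSF1 KO MEF, next to 64.0, 61.7 and 64.1 FPKM in WT MEF LiCl, against 17.2, 28.9 and 12.7 FPKM in WT MEF. It rose in WT MEF (1.71, standard error 0.39, limma adjusted p = 0.00617) and overlapped between the knock-out groups (0.84, limma adjusted p = 0.148). Atp6v1h-201, with the exon, had 32.5, 6.79 and 26.0 FPKM in HSF1 KO MEF LiCl, against 22.3, 29.6 and 23.6 FPKM in HSF1 KO MEF, next to 21.3, 14.2 and 20.9 FPKM in WT MEF LiCl, against 15.7, 8.64 and 18.9 FPKM in WT MEF. Neither of its responses was past the threshold (-0.44 in HSF1 KO MEF and 0.40 in WT MEF, limma adjusted p = 0.574 and 0.577). The shares of both forms moved against each other within groups, with Atp6v1h-201 at 9.41 to 50.7% of the gene in HSF1 KO MEF LiCl and 20.4 to 52.8% in WT MEF, so a switch between them could not be told from this spread.

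Atp6v1h-207 and Atp6v1h-205 were singled out after their values had been seen, so their tests are no independent support. Atp6v1h-207, which has 4 coding exons, all shared with Atp6v1h-201, and ends early (chr1:5083110-5095728), had 13.0, 14.3 and 14.8 FPKM in HSF1 KO MEF LiCl, against 4.57, 3.30 and 2.92 FPKM in HSF1 KO MEF, next to 20.5, 20.9 and 18.9 FPKM in WT MEF LiCl, against 2.89, 4.38 and 3.47 FPKM in WT MEF. Its log2 fold change was 1.73 in HSF1 KO MEF (standard error 0.15, limma adjusted p = 1.73e-05) and 2.21 in WT MEF (standard error 0.15, limma adjusted p = 1.66e-06), and its interaction of -0.49 was not past the threshold (limma adjusted p = 0.216). Its share of the gene was 19.7% in HSF1 KO MEF LiCl against 7.50% in HSF1 KO MEF, and 18.3% in WT MEF LiCl against 9.38% in WT MEF. Atp6v1h-205 begins 13062 bases upstream of Atp6v1h-201, in another first exon (chr1:5070018-5070144). It had 0.138, 0.406 and 0.115 FPKM in HSF1 KO MEF LiCl, against 0.139, 0.101 and 0.0901 FPKM in HSF1 KO MEF, but 3.59, 6.49 and 8.76 FPKM in WT MEF LiCl, against 0, 0.171 and 0 FPKM in WT MEF. The 3 libraries of WT MEF LiCl stood alone. It passed the filter only through that group and so had to differ, and no test of it is given. It made up 3.21 to 7.74% of the gene in WT MEF LiCl.

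**Figure D4:**
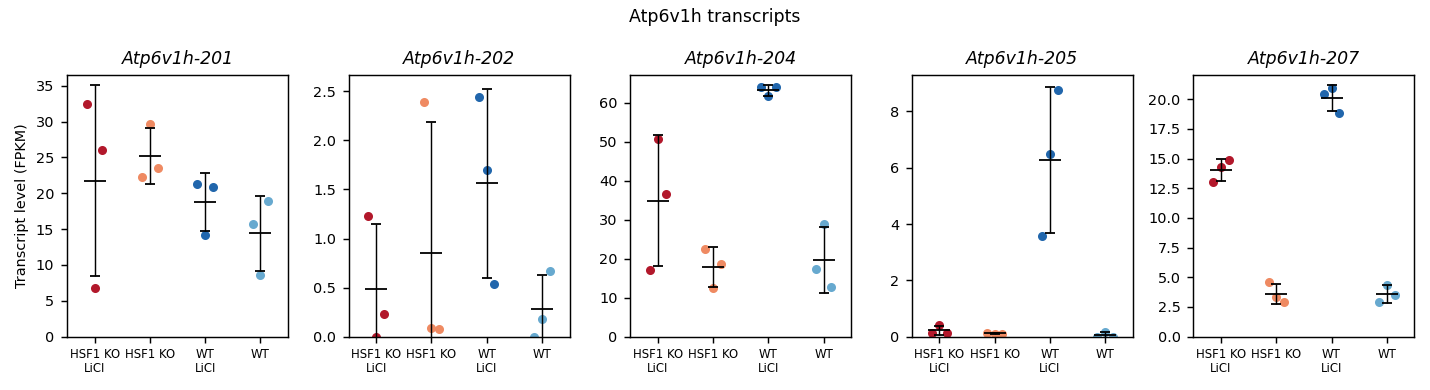
FPKM of the 5 Atp6v1h transcripts (vertical axis, a scale of its own in each panel) in HSF1 KO MEF LiCl, HSF1 KO MEF, WT MEF LiCl and WT MEF from left to right. Points are libraries, bar and whiskers their mean and SD, cut off at 0. Atp6v1h-207 is higher with LiCl in both genotypes, Atp6v1h-205 is at 3.59 to 8.76 FPKM in WT MEF LiCl and at most 0.406 FPKM elsewhere, and Atp6v1h-201 overlaps between groups.

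RefSeq promoters (GRCm38.p6, 250 bases before to 50 after the start) were at hand for 4 of the 8 genes, Atp6v1a, Atp6v1d, Atp6v1e1 and Atp6v1f. The promoters of Atp6v1b2, Atp6v1c1, Atp6v1g1 and Atp6v1h were not analysed here. The 4 windows were searched on both strands for TCACGTGA, the core of the CLEAR element to which TFEB and TFE3 bind, for the E-box CACGTG that lies inside it, and for paired heat shock units, GAANNTTC and TTCNNGAA. TCACGTGA and CACGTG were chosen after the letters of the Atp6v1a promoter had been seen, so a match there is no test. Atp6v1a held TCACGTGA at 132 bases before its start (the first base of the match). It is printed in capitals to mark its place in the window (chr16:44139210-44139509, reverse strand). Of all 32851 promoters 0.974% hold these letters, which is no measure of this match, since the letters were chosen from it.

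Atp6v1a promoter: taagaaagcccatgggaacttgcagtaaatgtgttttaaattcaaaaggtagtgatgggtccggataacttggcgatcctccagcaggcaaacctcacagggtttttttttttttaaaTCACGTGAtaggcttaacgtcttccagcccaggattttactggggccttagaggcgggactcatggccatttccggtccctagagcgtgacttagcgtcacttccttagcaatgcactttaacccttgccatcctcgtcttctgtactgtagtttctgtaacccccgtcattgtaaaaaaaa

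The other 3 windows held none of these letters. CACGTG was in 7.15% of all promoters, GAANNTTC in 7.86% and TTCNNGAA in 8.52%. Of 7 V0 genes with a promoter, Atp6v0d1 and Atp6v0e held TCACGTGA, they and Atp6v0b held CACGTG, and Atp6v0a1, Atp6v0c and Atp6v0e held TTCNNGAA. These genes had 11 promoter windows, so some had more than 1, and the letters were in 2, 3 and 4 of the 11 in that order. Of the 2 accessory subunits Atp6ap2 held TTCNNGAA. A match is a description of the letters. The response in WT MEF was 1.41 for Atp6v1a, and 1.85, 1.65 and 1.09 for Atp6v1d, Atp6v1f and Atp6v1e1.

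Outside the pump, the gene whose profile was most like the mean of the 8 V1 genes was Abcg1, a sterol exporter, with Pearson's r of 0.994 over the 12 libraries, among 11437 genes ranked. It had 15.1 ± 0.77 FPKM in HSF1 KO MEF LiCl against 5.48 ± 0.20 FPKM in HSF1 KO MEF, and 36.9 ± 2.1 FPKM in WT MEF LiCl against 2.74 ± 0.15 FPKM in WT MEF (SD, n = 3 each). Mfsd1, a transporter of the lysosomal membrane, followed with 0.992, at 83.3 ± 4.5 FPKM in HSF1 KO MEF LiCl against 45.5 ± 2.2 FPKM in HSF1 KO MEF and 136 ± 5.8 FPKM in WT MEF LiCl against 34.4 ± 2.5 FPKM in WT MEF. The next were Eaf1, Sh3bgrl2, Akirin1, Hmga1, Alox5, Mpp6, Stx3 and Gatm, with r of 0.985 to 0.992. The libraries share groups, and these values only describe likeness.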

How the data were processed

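The authors deposited 1 table of values for 27185 transcripts, read here as FPKM, since library sums differ and lie far below those of TPM. Per the labels and the submitters' processing notes, poly(A) RNA was made into stranded libraries and cutadapt, HISAT2 2.0.5 and StringTie were used with GRCm38. Options and annotation release are not stated in the sources used. The highest group mean of every transcript was at least 0.5 FPKM, so low transcripts had been left out before deposit, and a gene low in all groups is not in the table. The depth is unknown. A step worth 1 read was searched for in low values of 6230 genes with 1 transcript, first over steps of 0.02 to 0.1, which held over the value ranges tried in 2 of 12 libraries, and then, with that result seen, over 0.03 to 0.06, which held in 4 of 12, so no reads were recovered.

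Transcripts were matched by ID to GENCODE mouse release M21 (70 were not, at most 0.136% of a library) and summed to 12988 genes. Those averaging 0.5 FPKM or more, 12279 in number, entered limma 3.58.1 (R 4.3.3) on log2(FPKM + 1), with a variance trend, 1 fit of the 4 groups and Benjamini-Hochberg adjustment over all genes at 0.05. This scale understates the change of low genes. FPKM values were not counts, so no count model was fitted. The code was tested on simulated data. The 8 genes and the gene lists were chosen with earlier results of these data known. The fit of single transcripts, the choice of Atp6v1h-205 and Atp6v1h-207, and the motifs TCACGTGA and CACGTG were added after the values or letters concerned had been seen. Named were all 8 genes in every comparison, Hsf1, up to 3 genes of each other list with the highest absolute log2 fold change among those past the threshold, list members that went against their list's majority, and the 10 genes with the highest r with a mean of at least 1 FPKM. Not every gene under this rule is printed. Alternatives were a pseudocount of 0.1, no filter, median-of-ratios scaling, quantile normalization, no trend, only the groups compared, protein coding transcripts alone, a replicate block and leaving out each library, and, chosen after seeing the data, a block of the unnumbered libraries and the numbered ones alone. Genes overlapping Atp6v1b2, Atp6v1e1 and Atp6v1h (Slc18a1, Slc25a18, Gm25193 and Rgs20) were not in the table. Python 3 with pandas and matplotlib served for the rest.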

Additional observations from a re-analysis of the deposited data

Results flagged for a closer look

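All 8 V1 genes had a response to LiCl that differed between HSF1 KO MEF and WT MEF by the interaction test of limma at an adjusted p under 0.05. The response in HSF1 KO MEF minus that in WT MEF was -0.76 for Atp6v1a, -1.51 for Atp6v1b2, -1.16 for Atp6v1c1, -0.997 for Atp6v1d, -0.98 for Atp6v1e1, -0.73 for Atp6v1f, -0.58 for Atp6v1g1 and -0.94 for Atp6v1h on the log2 scale. Outliers within groups were not tested, since each group had 3 libraries.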

How the results depend on the processing

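Counts of V1 genes called stayed within 1.5 times their values in all alternatives run. Leaving out 1 library gave 7 of 8 genes higher with LiCl in HSF1 KO MEF and 8 of 8 in WT MEF in every case, 7 to 8 lower for the interaction, 5 to 7 higher in untreated HSF1 KO MEF and 5 to 7 lower with LiCl, and the other alternatives gave 5 to 7, 8, 7 to 8, 5 to 7 and 6 to 7 in the same order. Of 680 values of single V1 genes under an alternative, 648 kept direction and side of the threshold, 22 lost their call, 6 gained one and 4 reversed, all of these for Atp6v1e1 with LiCl in the knock-out. It had -0.094 after median-of-ratios scaling, -0.080 in the numbered libraries alone, and between -0.034 and 0.27 when 1 library was left out, with -0.012 without HSF1 KO MEF LiCl library 2 and -0.034 without the unnumbered HSF1 KO MEF library. Of the lost calls, 11 were the interaction of Atp6v1e1, which was also lost with a pseudocount of 0.1 (limma adjusted p = 0.0541), quantile normalization (0.0759) and no variance trend (0.0538). The cause was not tested. The 6 pairs among the unnumbered libraries had deviations that correlated at 0.125 to 0.195, and the 24 pairs of an unnumbered with a numbered library of another group at -0.169 to 0.0374. The 12 pairs numbered 1 or 2 had -0.0101 to 0.138, with 1 of 12 over 0.1, so those numbers were not taken as pairs. With the replicate block, a term for each number, 7 of 8 V1 genes were called higher in untreated HSF1 KO MEF in place of 6, Atp6v1f being added (0.19, limma adjusted p = 0.00816), and no other call of a V1 gene changed. A pair of alternatives was chosen after seeing the data. A block of the unnumbered against the numbered libraries gave 7 of 8 in that comparison and 7 of 8 lower with LiCl in place of 6, Atp6v1g1 being added there (limma adjusted p = 0.0357). The numbered libraries alone gave 6 of 8 higher with LiCl in HSF1 KO MEF in place of 7, 8 of 8 in WT MEF, 8 of 8 lower for the interaction, 6 of 8 higher in untreated HSF1 KO MEF, where Atp6v1f was called and Atp6v1h was not, and 6 of 8 lower with LiCl. The depth is unknown, so only the spread of 3 libraries bounds the precision.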
